A study of Chlorocebus sabaeus with 45 samples.

Results

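S100 proteins are small EF-hand proteins that bind calcium and then expose a surface for partner proteins. Neutrophils and monocytes hold S100A8 and S100A9 in their cytosol as a heterodimer named calprotectin, which binds zinc and manganese and acts as a danger signal once it is released. S100A12 is released by the same cells, and S100P is a relative found in blood neutrophils and in epithelia. The other members studied here act mostly inside cells, S100A4 on non-muscle myosin, S100A6 on calcyclin-binding protein, S100A10 on annexin A2 and S100A11 on annexin A1.

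The group consists of 8 genes, S100A4, S100A6, S100A8, S100A9, S100A10, S100A11, S100A12 and S100P, picked by symbol from the 33994 genes listed for each library. All 8 were listed and all 8 were among the 18753 genes tested, which had more than 0.5 CPM (counts per gene scaled to library size) in at least 3 libraries. S100A12 passed this limit only through day 0, where 5 libraries exceeded it, against 0 on day 3 and 1 on day 14. A filter passed through 1 high group favours a difference, so the test of S100A12 is given as a description and does not count for the others.

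Whole blood RNA came from 15 wild-born juvenile male vervets (*Chlorocebus sabaeus*) of St. Kitts, each sampled on day 0 at its place of capture, sedated with ketamine and xylazine, and on day 3 and day 14 in quarantine, in single cages, under dexmedetomidine and midazolam. Each animal came from a different troop, and no animal stayed behind as a control. Sedation and place therefore cannot be told apart from the change after day 0, while day 14 vs. day 3 compares samples of the same setting. The 45 libraries held 13216275 to 31469332 fragments assigned to genes.

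Levels are given in FPKM (fragments scaled to the length of the gene and the depth of the library) as deposited. Changes are given on the log2 scale of FPKM scaled by TMM (a trimmed mean over genes that corrects for a few abundant genes filling a library) plus 0.1, from limma with the animal as a block. TMM matters on day 14, when red cell transcripts took more of each library: over all tested genes the median change (day 3 vs. day 0, day 14 vs. day 0, then day 14 vs. day 3, the order kept throughout) was 0.01, −0.02 and −0.02, and without TMM it was −0.03, −0.36 and −0.35. A rise on day 14 is thus a rise relative to the typical gene.

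S100A9 was the most abundant member, with a median of 2537 FPKM on day 0, 1886 on day 3 and 1096 on day 14. S100A4 followed with 518, 570 and 461 FPKM, and S100A8 came next with 299, 237 and 196 FPKM. S100A9 lay above S100A4 in 15, 14 and 13 of the 15 animals on the 3 days. S100A4 lay above S100A8 in 10 animals on day 0 and in 14 and 13 later. S100A6 (median 99.4, 89.7 and 85.6 FPKM) lay above S100A11 (80.5, 73.8 and 59.1 FPKM) in 11, 14 and 13 animals. S100P and S100A10 could not be ordered: S100P was the higher in 8 animals on day 0 and in 7 on day 3, and S100A10 in 10 on day 14. The row labelled S100A12 was lowest by far, with a median of 0.144 FPKM on day 0, 0.0441 on day 3 and 0.0223 on day 14.

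On day 0 a single gene, S100A9, took a median of 0.161% of all fragments, and 1.74% in its highest library. The 8 members together took 0.221% on day 0, 0.197% on day 3 and 0.112% on day 14 (medians), and at most 2.05%, 0.493% and 0.296%. The highest share was thus reached on day 0, and the ranges of the 3 days overlapped.

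S100A9, the subunit that carries the long C-terminal tail of calprotectin, ranged from 959 to 27440 FPKM on day 0, from 374 to 6280 on day 3 and from 337 to 3173 on day 14. Its day 0 values fell into a broad upper part, led by animals 11 (27440 FPKM), 15 (26383 FPKM) and 7 (16408 FPKM), and a lower part that overlapped the later days. After TMM scaling 7 of the 15 day 0 libraries lay above the highest day 14 library, and 2 of the day 14 libraries lay below the lowest day 0 one. S100A9 fell on day 14 vs. day 0 by 1.46 on the log2 scale (standard error 0.42, 2.76-fold, adjusted p = 0.00565 from limma), in 10 of 15 animals, with changes per animal from −4.20 to 1.67. The other 5 animals were higher on day 14. On day 3 vs. day 0 the log2 fold change was −1.16 (standard error 0.42, lower in 9 animals), just short of the threshold at adjusted p = 0.0514. It passed when animal 1, 3, 6, 9, 12 or 14 was left out (range −1.40 to −0.94 over the 15 animals). Between both quarantine samples it was −0.31 (adjusted p = 0.630, 95% confidence interval −1.17 to 0.56).

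S100A8, the partner subunit, ranged from 96.7 to 4707 FPKM on day 0, from 25.9 to 1449 on day 3 and from 44.0 to 492 on day 14. Animals 11, 15 and 7 again stood highest on day 0, with 4707, 3673 and 1676 FPKM, followed by animal 5 with 1608. The medians after TMM scaling were 225, 216 and 244 FPKM, so the middle of the distribution lay at a similar level on each day while its upper end was lower (the spread was not tested). The log2 fold change was −0.86 on day 3 (standard error 0.48, adjusted p = 0.215) and −0.89 on day 14 (standard error 0.48, adjusted p = 0.130), lower in 9 of 15 animals both times. The 95% confidence interval on day 14 ran from −1.87 to 0.08, and without TMM the change was −1.32 (adjusted p = 0.00814). The SD of the log2 level among the 15 animals was 2.06 on day 0, 1.48 on day 3 and 1.20 on day 14 for S100A8, and 1.86, 1.17 and 0.96 for S100A9.

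**Figure D1:**
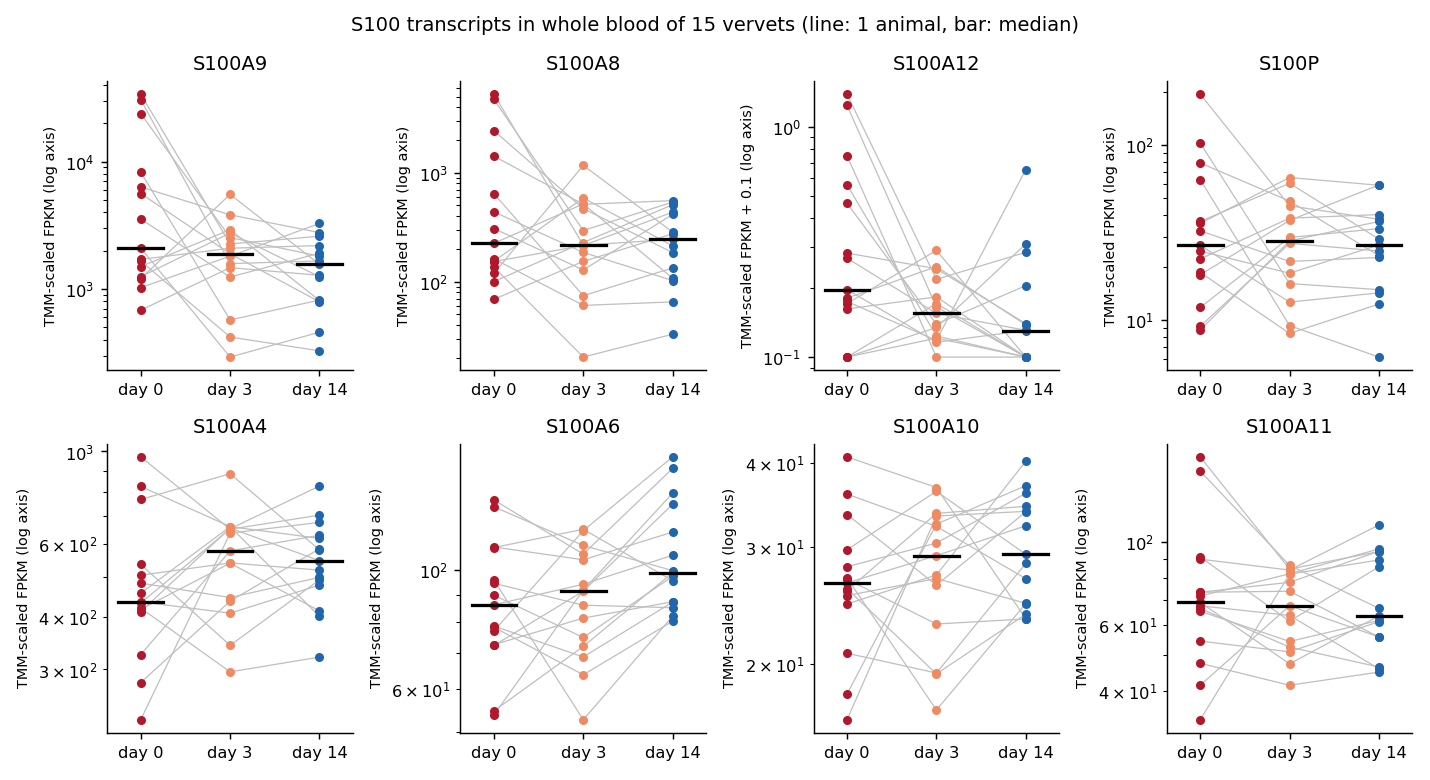
TMM-scaled FPKM of the 8 genes on a log axis (with 0.1 added for S100A12, which was at 0 in 11 libraries), 1 point per library, grey lines joining the samples of 1 animal and black bars at the medians. S100A9 spans 683 to 33803 on day 0 and 327 to 3274 on day 14, while the S100A8 medians of 225, 216 and 244 lie close together.

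Both calprotectin genes moved together from library to library. The gene most like S100A8 over the 45 libraries was S100A9 (Pearson r = 0.94 of log2 levels, a description), followed by ORM1, the acute-phase protein orosomucoid (r = 0.88), and LOC103230984 (r = 0.87). After the means of animal and day were removed the r with S100A9 was 0.95. The points share animals and scaling, and these values are not tests.

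The S100A9 to S100A8 ratio was less variable than either gene. It had a median of 10.2 on day 0 (range 4.46 to 15.4), 7.7 on day 3 (range 2.35 to 14.4) and 6.14 on day 14 (range 4.39 to 13.9), with animal 4 the highest each time. By day 14 the ratio had changed by −0.57 ± 0.57 from day 0 on the log2 scale (SD, n = 15), being lower in 12 of 15 animals (two-sided exact sign-flip permutation test, adjusted p = 0.00934 over 3 tests). The differences of −0.30 on day 3 vs. day 0 (lower in 11 animals) and −0.28 on day 14 vs. day 3 (lower in 12 animals) did not pass (exact permutation test, adjusted p = 0.102 for both). This test was chosen after the data had been seen. In the planned limma fit of every gene relative to S100A8, 0 of the other 7 members passed on any comparison, where 2.92%, 14.1% and 0.016% of all genes passed. At an unadjusted p under 0.05 there were 1, 3 and 0 members, where 28.1%, 34.5% and 2.77% of all genes lay under it. That limma fit gave S100A9 a standard error of 0.52, the same as for each other member (−0.57 on day 14 vs. day 0, adjusted p = 0.349). The SD among animals of that change was 0.57 for S100A9 and 1.87 for S100A10, so the common standard error does not follow the spread of each gene.

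**Figure D2:**
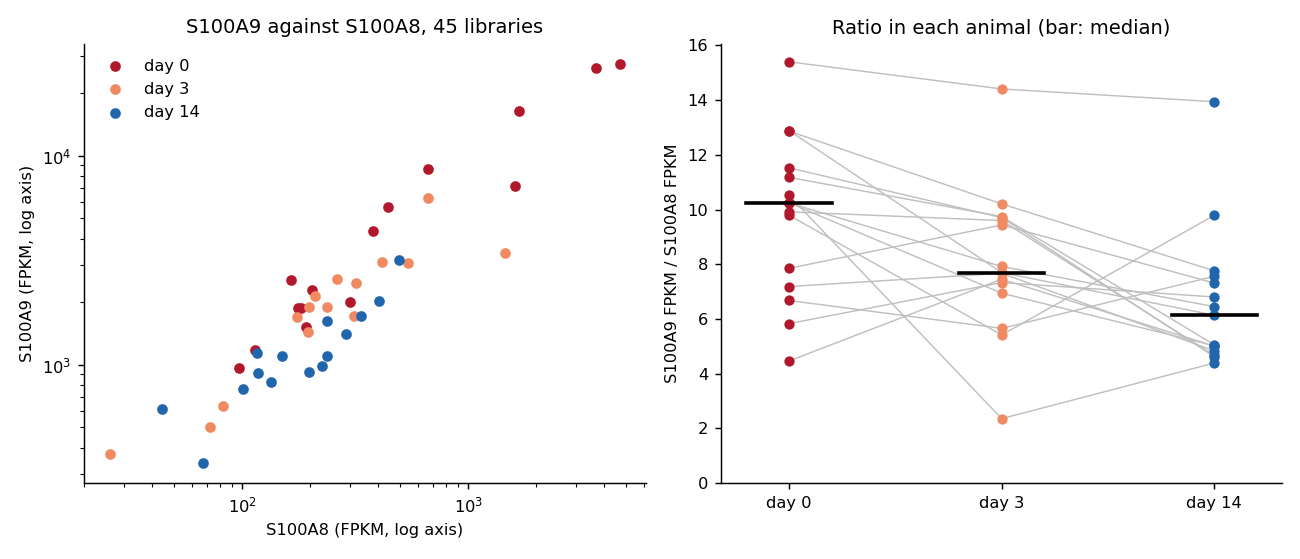
Left, S100A9 against S100A8 in FPKM (both axes logarithmic) in 45 libraries, coloured by day. Right, the ratio of both FPKM values in each of 15 animals on the 3 days (linear axis from 0), grey lines joining an animal and bars at the medians of 10.2, 7.7 and 6.14.

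The row labelled S100A12, a ligand of the receptor AGER, was near the limit of detection. Its length was 1735 bases, against 518 to 1117 for the other 7 members, and which locus it counts was not settled. Its values may therefore not give the level of S100A12 mRNA in this blood. The row was supported by 166 fragments over all day 0 libraries, 46 over day 3 and 36 over day 14. It was at 0 in 3, 1 and 7 libraries. A count of 0 allows up to 3 fragments, or 0.0549 to 0.105 FPKM depending on the library (counting error only). Of the day 0 fragments 98 came from animals 7, 11 and 15, the same animals that led S100A8 and S100A9, and on day 14 the highest library was that of animal 4 (0.739 FPKM, 18 fragments). The fitted log2 fold change on day 14 vs. day 0 was −0.90 (standard error 0.32, adjusted p = 0.0236, lower in 11 animals). Its size is set by the value added before the logarithm, since it was −0.23 with 1 and −1.86 with 0.01 in place of 0.1. When animals were left out in turn the call was lost without animal 2, 7, 11 or 15 (range −1.10 to −0.70). On day 3 vs. day 0 it was −0.79 (adjusted p = 0.0808), and both later days lay mostly at or under 3 fragments, so no fold is given between them. RefSeq for the assembly mChlSab1.0.hap1, another build than that of the files, has 7 of the 8 symbols. S100A12 is the symbol it does not use, and a protein-coding gene, LOC103223968, lies next to S100A9 there and was not analysed here. The genes most like S100A12 over the 45 libraries were SYDE2 (r = 0.84), LOC103226886 (r = 0.83) and HRASLS (r = 0.83), each with a median under 1 FPKM on all 3 days.

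S100P, a dimeric member that can also signal through AGER, ranged from 11.5 to 153 FPKM on day 0 (median 33.4), from 8.39 to 63.0 on day 3 (median 36.3) and from 5.96 to 57.3 on day 14 (median 23.5). Animals 15, 13, 7 and 11 were highest on day 0, and animal 11 was the lowest on both later days. Its TMM-scaled medians were 26.7, 28.3 and 26.9 FPKM. The log2 fold change was −0.23 on day 3 (standard error 0.33, adjusted p = 0.668) and −0.28 on day 14 (standard error 0.33, adjusted p = 0.512), with 8 of 15 animals lower each time and a 95% confidence interval of −0.96 to 0.39 on day 14. Without TMM the change on day 14 was −0.71 (adjusted p = 0.0335). Within animals the extremes were wide, from −3.35 to 2.05 on day 14 vs. day 0. The genes most like it were LOC103233913 (r = 0.78), NQO2, a quinone reductase (r = 0.75), and LOC103240309 (r = 0.74).

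The 4 members with roles inside cells varied less among animals. S100A4 ranged from 301 to 869 FPKM on day 0, from 362 to 997 on day 3 and from 185 to 801 on day 14. Its log2 fold change was 0.21 on day 3 (standard error 0.14, adjusted p = 0.327) and 0.21 on day 14 (adjusted p = 0.243), higher in 9 of 15 animals in both, and −0.22 on day 14 without TMM. Its nearest genes by pattern were MGST3, a microsomal glutathione transferase (r = 0.82), its fellow member S100A6 (r = 0.82) and PSENEN, a gamma-secretase subunit (r = 0.79).

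S100A6 ranged from 59.5 to 126 FPKM on day 0, from 58.1 to 152 on day 3 and from 46.3 to 150 on day 14. As deposited its median went from 99.4 to 85.6 FPKM, whereas after TMM scaling it went from 86.2 to 99.0, so its direction depends on the scaling. With TMM it rose on day 14 vs. day 0 by 0.29 (standard error 0.11, 1.22-fold, adjusted p = 0.0304, higher in 11 of 15 animals), and without TMM the change was −0.13 (adjusted p = 0.380). The call did not hold without animal 1, 9, 12 or 14 (0.21 to 0.34), without the animal block (adjusted p = 0.0783) or with the RNA integrity number as covariate (0.11, adjusted p = 0.614). From day 3 to day 14 the log2 fold change was 0.28 (adjusted p = 0.0573, higher in 12 animals, past the threshold without animal 6, 13 or 15), and on day 3 vs. day 0 it was 0.01 (adjusted p = 0.969).

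S100A10, which has lost calcium binding and forms a tetramer with annexin A2 at the plasma membrane, ranged from 17.8 to 41.3 FPKM on day 0, from 18.8 to 41.6 on day 3 and from 13.7 to 43.1 on day 14. Its log2 fold change was 0.06 on day 3 (95% confidence interval −0.17 to 0.30) and 0.17 on day 14 (−0.06 to 0.40, adjusted p = 0.231), but −0.25 on day 14 without TMM (adjusted p = 0.0885) and −0.06 with the RNA integrity number as covariate. S100A11, which binds annexin A1, ranged from 47.1 to 121 FPKM on day 0, from 42.3 to 108 on day 3 and from 33.7 to 149 on day 14. Its log2 fold change was −0.12 on day 3 (95% confidence interval −0.39 to 0.16) and −0.05 on day 14 (−0.33 to 0.22, adjusted p = 0.771), and without TMM it fell on day 14 by 0.48 (adjusted p = 0.00872). For both genes the intervals leave out changes of 1.5-fold or more, with TMM scaling, in these comparisons.

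The S100A10 to ANXA2 ratio had medians of 0.278, 0.282 and 0.248 on the 3 days, and its largest change was −0.15 ± 0.28 on the log2 scale (SD, n = 15) on day 14 vs. day 3 (two-sided exact sign-flip permutation test, p = 0.0391, adjusted p = 0.117 over 6 tests). The S100A11 to ANXA1 ratio had medians of 0.409, 0.488 and 0.342. It fell on day 14 vs. day 3 by 0.48 ± 0.55 (a change of −0.48), in 11 of 15 animals (exact permutation test, p = 0.00586, adjusted p = 0.0352), and leaving out 1 animal lost this call for 8 of the 15 animals (range −0.55 to −0.43). ANXA1 itself, a glucocorticoid-induced annexin, rose over that interval by 0.55 (standard error 0.17, adjusted p = 0.0207, higher in 14 animals), while S100A11 had a log2 fold change of 0.06 (adjusted p = 0.765).

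**Figure D3:**
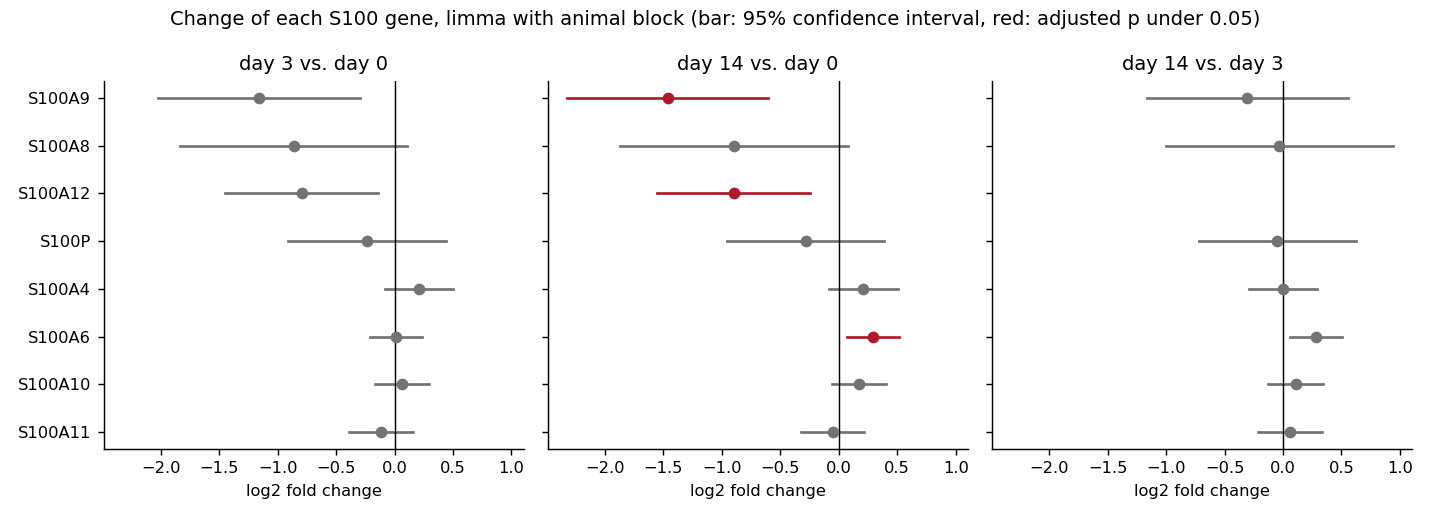
Log2 fold change of each of the 8 genes in the 3 comparisons, S100A12 on day 14 vs. day 3 left out for its low counts (points), with 95% confidence intervals (bars), from limma with TMM scaling and animal block, on the same axis, red where the adjusted p was under 0.05. S100A9 (−1.46), S100A12 (−0.90) and S100A6 (0.29) are red on day 14 vs. day 0, and intervals of the calprotectin genes are wider than those of the 4 intracellular members.

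Of the 8 members limma called 0 on day 3 vs. day 0, against 19.2% of all tested genes. At an unadjusted p under 0.05 there was 1 of the 7 members other than S100A12 (S100A9), where 32.0% of all genes lay under it, and limma-voom on recovered fragments called 1 (S100A9), where it called 18.8% of all genes. On day 14 vs. day 0 limma called S100A9 down and S100A6 up, that is 2 of the 7 members other than S100A12, where 44.0% of all genes were called, 23.0% up and 21.0% down. Without TMM 59.2% of all genes were called in that comparison, 9.29% up and 49.9% down. S100A12, kept in the test by its day 0 values, was called down as well. Between day 3 and day 14 it called 0 of 8, where 23.7% of all genes were called, with S100A6 at an unadjusted p under 0.05 (37.7% of all genes) and 1 call, S100A6, by voom (23.5% of all genes). The median log2 fold change over the 8 genes, S100A12 included, was −0.18, −0.17 and −0.02, beside 0.01, −0.02 and −0.02 for all genes. Without TMM it was −0.22, −0.59 and −0.35, beside −0.03, −0.36 and −0.35 for all genes. The first 2 comparisons share their day 0 samples.

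Of the other S100 genes, 10 were listed and 5 were tested (S100A1, S100A2, S100A3, S100A5 and S100B), and S100G was at 0 in all libraries. S100A1, better known from heart muscle, went from a median of 8.52 FPKM on day 0 to 21.3 on day 3 and 10.9 on day 14. Its level increased by 1.39 on day 3 (standard error 0.23, adjusted p = 2.89e-04, higher in 14 of 15 animals) and by 0.87 on day 14 (adjusted p = 0.00268, higher in 12). S100A5 fell on day 3 by 0.41 (a change of −0.41, adjusted p = 0.00891), at a median of 0.356 FPKM, and S100A3 did not pass in any comparison (−0.13 on day 14, adjusted p = 0.504). The list had 1 gene up and 1 down in the first comparison, 1 up in the second and 1 up (S100A5, 0.33) in the third, with medians of −0.18, −0.05 and 0.05 (−0.20, −0.24 and −0.11 without TMM). Without TMM it had 1 up and 1 down in the second comparison and 0 up and 2 down in the third, and without the animal block 0 were called in the third.

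The receptors and signalling partners of extracellular S100 proteins were tested for all 8 listed genes. TLR4, the receptor of S100A8 and S100A9, fell by 1.08 on day 14 (a log2 fold change of −1.08, standard error 0.23, adjusted p = 3.34e-04, lower in 13 animals), after −0.73 on day 3 (adjusted p = 0.0233). Its co-receptor LY96 had −0.68 on day 14 (adjusted p = 0.00611) and −0.75 on day 3 (adjusted p = 0.00826). BSG (basigin), which also binds S100A9 and is the Ok blood group antigen of red cells, rose by 2.13 on day 14 (standard error 0.30, adjusted p = 1.77e-06, higher in 14 animals). AGER, the receptor of S100A12 and S100P, did not pass (−0.34 on day 14, adjusted p = 0.126). The list had 1 up and 2 down on day 3 and on day 14, and its medians were −0.17 and −0.29. Without TMM 1 was up and 6 were down on day 14, with a median of −0.68.

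Of 9 tested intracellular partners, EZR (ezrin) rose on day 3 by 0.33 (adjusted p = 0.00539) and on day 14 by 0.28 (adjusted p = 0.00544), and ANXA11 fell on day 14 by 0.44 (a change of −0.44, adjusted p = 0.00482). ANXA2, the S100A10 partner, had 0.27 on day 14 (adjusted p = 0.0599). The list had 1 up on day 3, 1 up and 1 down on day 14, and 2 up and 1 down in the third comparison, with medians of 0.00, 0.06 and −0.04. Without TMM the medians were −0.04, −0.36 and −0.43. In that fit 0 of these partners were called up in any of the 3 comparisons, and 1, 3 and 5 were called down. Of 6 transcription factors of myeloid cells that act on S100 promoters, 1 fell on day 3 and 6 of 6 fell on day 14. Their medians were −0.52 and −0.76, and 9.04% and 21.0% of all genes were called down. Without the animal block 0 of the 6 were called on day 3 and 4 on day 14. With the block, SPI1 (PU.1) had −0.90 on day 14 (adjusted p = 3.88e-04), CEBPB −1.01 (adjusted p = 0.00513) and CEBPE, the factor of late granulocyte maturation, −1.27 (adjusted p = 0.0251).

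In whole blood, fewer cells of a type and less RNA per cell cannot be told apart. Mature neutrophil markers moved with S100A9: 11 of 13 fell on day 3 and 13 of 13 on day 14, and their summed level went from 456 to 3907 FPKM on day 0 to 232 to 1303 on day 3 and 171 to 600.5 on day 14, with none of them at 0. PROK2 (−2.39), MGAM (−1.96) and ALPL (−1.81) had the lowest adjusted p on day 14. The mean of the 13 markers changed by −1.13 ± 1.37 on day 3 and by −1.43 ± 1.07 on day 14 (SD, n = 15, log2 scale), lower in 12 and 14 animals. Over the 45 libraries, the r with this mean was 0.85 for S100A9, 0.70 for S100A8, 0.74 for S100A12, 0.50 for S100P, 0.42 for S100A11, 0.19 for S100A4, 0.11 for S100A6 and 0.08 for S100A10 (descriptions without a test). After the means of animal and day were removed, the r was 0.845 for S100A9, 0.73 for S100A8, 0.59 for S100A12, 0.83 for S100P, 0.47 for S100A11, 0.58 for S100A4, 0.39 for S100A6 and 0.27 for S100A10.

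With the mean of the neutrophil markers as a covariate, 0 members were called lower in both comparisons with day 0, where 9.39% of all genes were called on day 3 (5.69% higher) and 26.2% on day 14 (15.2% higher). S100A9 then had a log2 fold change of 0.55 on day 14 vs. day 0 (adjusted p = 0.228) and S100A12 0.18 (adjusted p = 0.774). S100P had 1.27 on day 14 (adjusted p = 7.86e-04) and 0.995 on day 3 (adjusted p = 0.0106), S100A4 had 0.66 (adjusted p = 0.00444) and 0.57 (adjusted p = 0.0195), and S100A6 had 0.52 on the later day (adjusted p = 0.00821). S100A8 had 1.07 on day 14 (adjusted p = 0.0982). The covariate is measured in the same libraries and changed with the day.

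**Figure D4:**
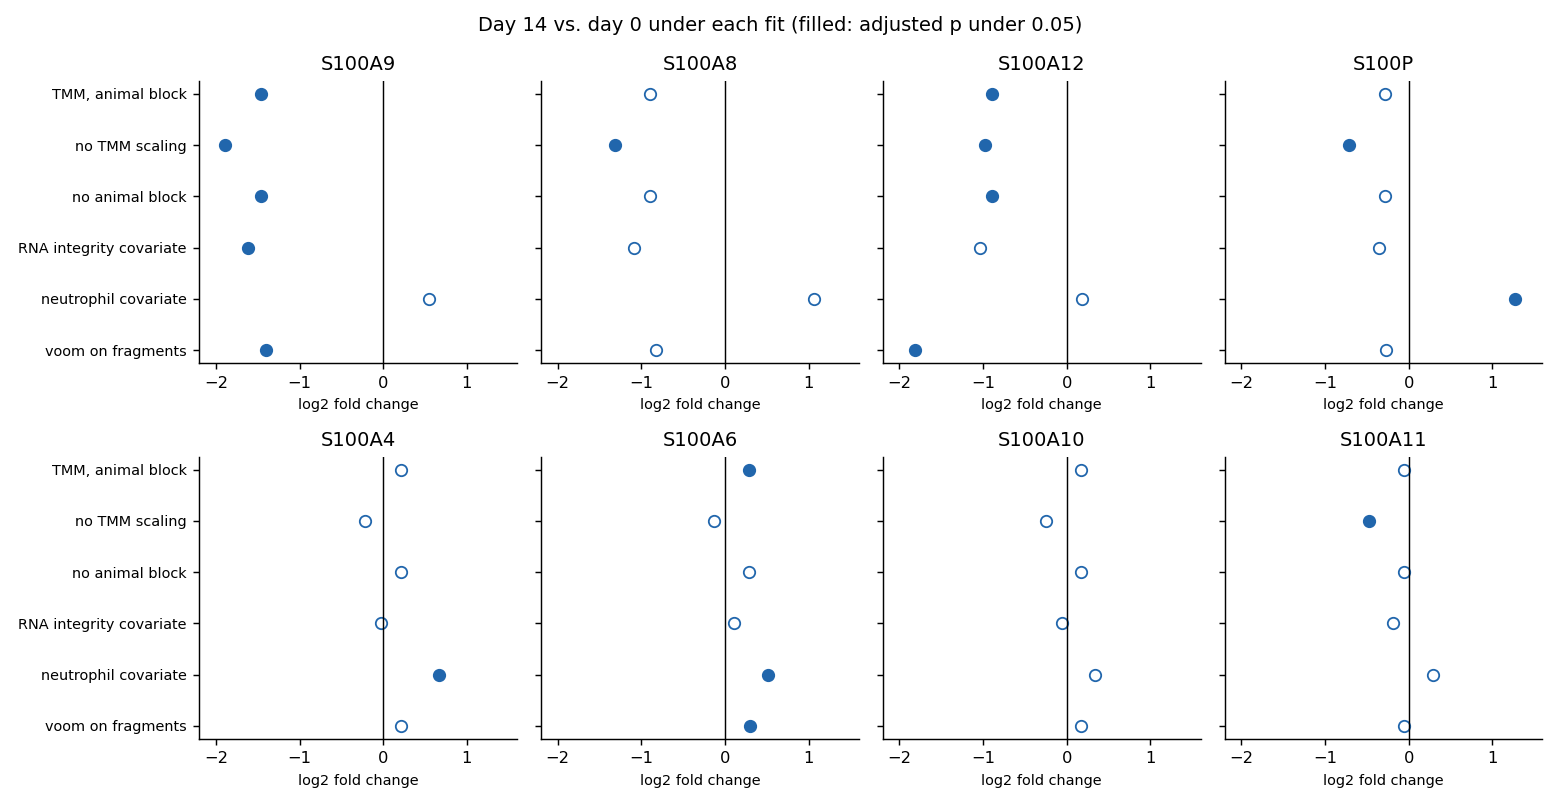
Log2 fold change of the 8 genes on day 14 vs. day 0 under 6 fits, filled where the adjusted p was under 0.05. S100A9 lies between −1.89 and −1.40 in each fit but the one with the neutrophil marker mean as covariate (0.55), and S100P goes from −0.28 to 1.27 with that covariate.

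The libraries with the highest S100A8 and S100A9 differed in their neutrophil transcripts. On day 0, animals 15, 7 and 11 had the 3 highest neutrophil marker means (7.33, 7.28 and 6.99 on the log2 scale), whereas animal 5, at 1608 FPKM of S100A8 and 7177 FPKM of S100A9, had the lowest (4.08). Animals 5, 11, 7 and 15 had the 4 highest means of 11 neutrophil granule genes on that day (4.58, 4.01, 3.99 and 3.64). Animal 5 also had the lowest S100A9 to S100A8 ratio of day 0 (4.46), and on day 3 animal 9, with the highest S100A8 (1449 FPKM), had the lowest ratio (2.35) and a granule mean of 3.93. The highest granule mean of day 3 (4.60, animal 3) went with a ratio of 9.44, and the lowest ratio of day 14 (4.39, animal 9) with a granule mean of −0.07. Over the 45 libraries the r of the granule mean with the log2 ratio was −0.24, and −0.41 after removal of the day means (descriptions).

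Markers of other cells moved too, and their part in the S100 values was not tested. Of 11 neutrophil granule genes, 0 were called on day 3 (0.44 median). On day 14 vs. day 0, 3 fell, MMP8 (−2.76), LCN2 (−1.94) and PGLYRP1 (−1.72), and the other 8 were not called (median of the list −0.89). On day 14 vs. day 3, 5 of the 11 fell (LTF, MPO, ELANE, CTSG and PRTN3), with a list median of −1.59. The summed level of the 11 genes ranged from 32.5 to 1692 FPKM on day 0 and from 18.1 to 101 on day 14. Of 10 monocyte markers, 1 rose (CD300E, 1.41) and 4 fell on day 14, among them CD14 (−0.77) and VCAN (−0.70), with summed levels of 1090 to 7105 FPKM on day 0 and 579 to 2373 on day 14. All 7 tested erythroid markers rose on day 14 (HEMGN, 2.87), and their summed level went from 581 to 20921 FPKM on day 0 to 8937 to 34610. Of 6 platelet markers 6 rose on day 3 and 4 on day 14 (PPBP, 1.27), of 5 NK cell markers 4 rose on each day (PRF1, 1.15 on day 14), and of 6 T cell markers 1 fell on day 3 (CD28, −0.32) and 2 rose on day 14 (CD3D, 0.61). The T cell direction depends on the scaling: the median on day 14 was 0.06, and without TMM it was −0.37, with 0 up and 3 down. Without TMM 1 of the 6 platelet markers was called up on day 14. Of 5 B cell markers 2 fell on day 14 (PAX5, −0.91) and 5 of 5 without TMM (median −0.39 with it, −0.81 without), and 0 of 4 eosinophil markers were called. RNA integrity also rose with the time point. With it as covariate S100A9 was the member called on day 14 vs. day 0 (−1.62, adjusted p = 0.0351), where 21.7% of all genes were called, and S100A12 was not (−1.04, adjusted p = 0.0743).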

How the data were processed

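Per the labels, RNA from PAXgene tubes was depleted of ribosomal and globin RNA and sequenced as stranded paired-end libraries. The authors deposited 1 table of FPKM per library, made with STAR and HTSeq against Chlorocebus_sabeus 1.1. Their counts were not used here. Whole fragments per gene were recovered from the steps of the FPKM values, 99.87% of the values above 0 coming out whole within 0.1 of a fragment, and used for totals, the CPM limit and TMM factors. FPKM was divided by the TMM factor, 0.1 was added, and log2 values were fitted with limma 3.58.1 in R 4.3.3 (day and animal), with Benjamini-Hochberg adjustment over 18753 genes and a threshold of 0.05. At 0.5 CPM a gene rests on 6.61 to 15.7 fragments. Samples of 1 animal are paired by the animal in their labels: after removal of day means they correlated with a mean r of 0.328, and other samples with −0.0231. Each animal gave 1 library a day. Ratios were tested over animals by exact sign flips. Members and lists were chosen with earlier results of these data known. Named genes are the 8 members, ANXA1 and ANXA2, the 3 genes of each list with the lowest adjusted p on day 14 vs. day 0, and the 3 genes most correlated with each of 4 members. Further genes were named only where a count called for it, except AGER, named as the receptor of S100A12 and S100P. Reads shared with near-identical copies were not assessed. No sequence is printed.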

Additional observations from a re-analysis of the deposited data

How the results depend on the processing

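Fits differed from the one reported (TMM, 0.1 added, animal block) in 1 choice at a time, except limma-voom, which changes the input, the value added and the weights together. Members called on day 3 vs. day 0 were 0 as reported, 1 without TMM, with median-of-ratios scaling or with voom (S100A9 each time), and 2 with the neutrophil covariate (S100A4 and S100P, up), where these fits called 12.8%, 19.2%, 18.8% and 9.39% of all genes. On day 14 vs. day 0 they were 3 as reported, S100A12 included. Without TMM they were 5 (S100A8, S100A9, S100A11, S100A12 and S100P, down), where 59.2% of all genes were called, 49.9% down. With the RNA integrity number there was 1 (S100A9, 21.7% of all genes). With no replicate block there were 2 (S100A9 and S100A12, 36.0% of all genes). S100A12 was kept in the test by its day 0 values. Its calls are descriptions and do not count beside these shares. The calls left without S100A12 are S100A6 and S100A9 as reported, and S100A9 alone with no replicate block. Without TMM they are S100A8, S100A9, S100A11 and S100P. On day 14 vs. day 3 the members called were 0 as reported. There was 1 with 1 added, with the neutrophil covariate or with voom (S100A6 up each time) or without TMM (S100A4 down). These fits called 24.1%, 26.5%, 23.5% and 51.1% of all genes. Among changes of a member called in at least 1 of both fits, the direction reversed for S100A6 on day 14 vs. day 0 without TMM (−0.13), and with the neutrophil covariate for S100A9 (0.55), S100A12 (0.18) and S100P (1.27) on day 14 and S100P (0.995) on day 3. Over the 8 members, 3 comparisons and all alternatives but the left-out animals, a further 26 of 216 changes turned sign but were called in neither fit, among them S100A8 (1.07 on day 14, 0.69 on day 3) and S100A9 (0.44 on day 3) with the neutrophil covariate, and S100A4 (−0.22) and S100A10 (−0.25) on day 14 without TMM. Without the replicate block, the pairing of an animal's samples being ignored, 2287, 6756 and 2511 genes were called in the 3 comparisons instead of 3593, 8253 and 4446. The neutrophil covariate gave 1761 on day 3 and 4916 on day 14 vs. day 0, the RNA integrity number 4070 in that comparison and 1838 on day 14 vs. day 3, and no TMM 9574 there. The cause of these changes was not tested. Leaving out each animal in turn gave 0 to 1 members called in the first and the third comparison, 0 to 3 members that differ from S100A8 in both comparisons with day 0, and 2661 to 5113 genes on day 14 vs. day 3, the lowest without animal 8. S100A9 on day 14 vs. day 0 was called in each of these 15 fits (−1.69 to −1.27). S100A6 on that comparison lost its call without animal 1, 9, 12 or 14 (0.21 to 0.34). On day 14 vs. day 3 the S100A10 to ANXA2 ratio lay between −0.18 and −0.10 (called without animal 3 or 15) and the S100A11 to ANXA1 ratio between −0.55 and −0.43. Depth limits S100A12, which rests on at most 40 fragments in a library.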
